A study of Mus musculus with 29 samples.

Results

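Triglyceride, the fat stored in adipocytes, is built on a backbone of glycerol-3-phosphate, and 8 genes of that route are described here in mouse mammary fat. Pck1 and Gpd1 supply the backbone, Gpam, Agpat2, Lpin1, Dgat1 and Dgat2 carry out the successive acylation and dephosphorylation steps, and Pnpla3 encodes a lipid droplet protein. The genes were taken by name from the expression table, as 8 of its 30818 genes, and 8 of 8 passed the filter on low counts that left 19387 genes for testing. In white fat, glycerol kinase is low, so the backbone comes mainly from glucose or from pyruvate and lactate through Pck1, the route called glyceroneogenesis. Both routes end at Gpd1. Several of these genes are known to be induced by feeding and insulin through SREBP-1c, the product of Srebf1, and ChREBP, the product of Mlxipl, while Pck1 is known to be induced by cyclic AMP and by PPARγ.

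The 29 libraries came from wild-type C57BL/6N mice in 6 diet groups. In 5 of the groups the mice had first been made obese on a diet with 60% fat. LFCR mice (5 libraries) were then given a low-fat diet with 30% calorie restriction, MCR mice (4 libraries) a Mediterranean-style diet with 30% calorie restriction, ICR mice (5 libraries) intermittent calorie restriction, and LFD mice (5 libraries) a low-fat diet without restriction. Obese mice (5 libraries) stayed obese, and Control mice (5 libraries) had received a control diet throughout. Mice of all 6 groups were injected with E0771 mouse mammary cancer cells into fat pad 4, 25 weeks after the first randomization. No group is therefore free of the injection, and whether tumors grew was not examined here. RNA came from the opposite pad, number 9. The labels also carry the words tumor, E0771 and mammary cancer for these libraries, while their tissue field and the protocols name the tumor-free side. They give no age or sex, do not say whether animals were pooled, and give no replicate number, so the library numbers used here only name libraries. Nothing states that libraries of a group are separate animals, so p-values reflect library-to-library spread, which may be technical.

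The adipocyte markers Adipoq (adiponectin) and Plin1 (perilipin 1) were abundant in every library, with lowest normalized counts of 16533 and 15474. Recovered depth ran from 16403903 to 49026986 reads, with the 5 libraries of 1 sequencing lane at the low end, and no lane held more than 1 library of a group. A list of 13 B cell genes divided the libraries, with 8 at a mean log2 value of 5.67 to 6.53 and the other 21 at 10.0 to 12.6. The low libraries were LFCR 1 and 3, MCR 1, 3 and 4, LFD 1 and Obese 1 and 5, so calls that changed without them are given beside the results. In a bulk sample, fewer cells of a type and less RNA per cell cannot be told apart.

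The stretch before the transcription start was read for the members that had a RefSeq entry, in the GRCm38.p6 build, and 5 of 8 genes matched. The 250 bases before the start of 4 of them are shown, and those of Lpin1, which held none of the motifs marked, are not. Capitals mark matches to 5 short motifs, searched on both strands and chosen with these sequences in view.
Pck1, chr2:173152823-173153072, plus strand: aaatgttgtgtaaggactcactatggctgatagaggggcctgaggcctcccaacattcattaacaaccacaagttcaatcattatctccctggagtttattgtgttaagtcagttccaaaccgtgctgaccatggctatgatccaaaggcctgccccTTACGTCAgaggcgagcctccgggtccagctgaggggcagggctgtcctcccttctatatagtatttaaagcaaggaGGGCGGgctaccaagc
Pnpla3, chr15:84167566-84167815, plus strand: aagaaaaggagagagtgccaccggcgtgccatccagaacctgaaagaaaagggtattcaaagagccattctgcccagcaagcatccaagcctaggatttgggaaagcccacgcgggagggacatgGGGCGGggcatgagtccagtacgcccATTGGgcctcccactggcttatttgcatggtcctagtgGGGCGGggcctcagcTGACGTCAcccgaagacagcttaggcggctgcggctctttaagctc
Gpam, chr19:55127239-55127488, minus strand: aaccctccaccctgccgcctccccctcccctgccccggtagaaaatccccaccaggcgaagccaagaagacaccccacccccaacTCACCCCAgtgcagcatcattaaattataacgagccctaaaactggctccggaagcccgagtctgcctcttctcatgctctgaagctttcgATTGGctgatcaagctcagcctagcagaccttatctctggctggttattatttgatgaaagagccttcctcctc
Agpat2, chr2:26604418-26604667, minus strand: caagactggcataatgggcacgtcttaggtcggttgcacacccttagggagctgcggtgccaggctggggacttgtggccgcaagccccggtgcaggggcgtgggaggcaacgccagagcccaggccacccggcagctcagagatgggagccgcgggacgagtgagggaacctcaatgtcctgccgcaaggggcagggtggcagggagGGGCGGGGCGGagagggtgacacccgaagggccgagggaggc
The cyclic AMP response element letters TNACGTCA stood 93 to 86 bases before the Pck1 start and 46 to 39 bases before the Pnpla3 start, where the letters read the same on both strands. They occur in 2.52% of the 32851 promoters of the table. The sterol response element letters TCACNCCA, found in 3.674% of promoters, stood 165 to 158 bases before the Gpam start. The common GC box letters GGGCGG, in 32.74% of promoters, occurred in the Pck1, Pnpla3 and Agpat2 stretches, with overlapping copies in Agpat2. CCAAT, in 33.85% of promoters, was read on the opposite strand in Gpam and Pnpla3, and the E-box CACGTG, in 6.021%, in none of the 4. Of the remaining members, Lpin1 held none of the 5 motifs in its stretch, and Dgat1, Dgat2 and Gpd1 are named only. A second, downstream start of Gpam held 1 GC box. These matches are letters in a window and were not tied to binding.

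Across the diets, 7 of the 8 genes had their highest group mean in LFCR mice, and Pck1 had it in ICR mice. All 8 genes rose in LFCR fat relative to Obese fat, by a median of 1.70 on the log2 scale against -0.04 for all genes tested, and every LFCR library lay above every Obese library for 8 of 8 members. In this comparison 11.9% of all genes tested passed as higher, and 8.82% had all LFCR libraries above all Obese libraries. Every MCR library lay above every Obese library for 5 members, against 6.42% of all genes. For ICR this held for 3 members, against 4.32%. MCR fat had 4 members higher than Obese fat (Gpam, Agpat2, Dgat1 and Pnpla3), where 6.66% of all genes passed as higher, and ICR fat had 4 (Gpam, Lpin1, Pnpla3 and Pck1), where 3.99% did. LFD fat had 1 (Pck1), where 2.7% did. Obese fat differed from Control fat in 1 member, Pnpla3, which was lower, as were 3.44% of all genes. All calls are limma tests with Benjamini-Hochberg adjusted p under 0.05 over the 19387 genes, and differences are on the variance-stabilised log2 scale of the table.

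**Figure D1:**
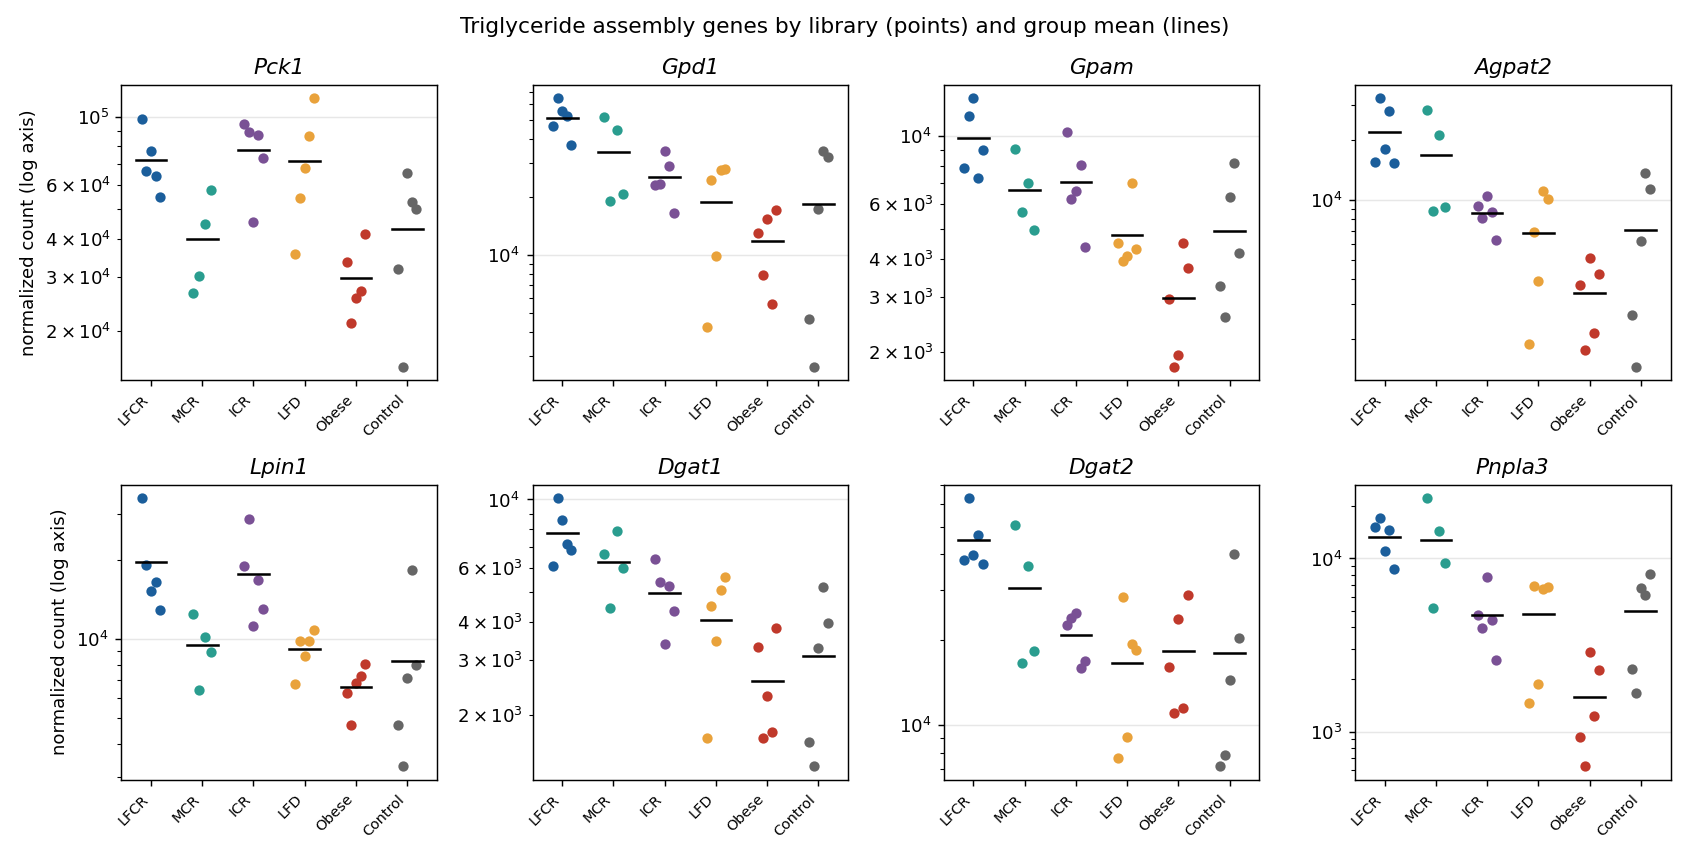
Normalized counts of the 8 genes (log axis) in each of the 29 libraries, as points, with a line at each group's mean; the order on the x axis is LFCR, MCR, ICR, LFD, Obese, Control. The LFCR points lie above the Obese points in all 8 panels, and Pck1 and Lpin1 have their MCR points below most of the LFCR and ICR points.

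Pck1 (chr2:173153048-173159273, plus strand) encodes the cytosolic phosphoenolpyruvate carboxykinase, the controlling step of glyceroneogenesis. Positions of this and the other genes are whole gene spans in GENCODE vM21 on GRCm38. Its normalized counts were 98496, 66478, 77386, 63941 and 54878 in LFCR mice, and 26624, 30155, 44748 and 57707 in MCR mice. ICR mice had 94434, 89467, 45423, 86874 and 73400.4, and LFD mice 35517, 54304, 67999, 86458 and 114878. Obese mice had 33629, 21249.6, 25657, 26982 and 41383, against 31808, 15274, 65495, 52753 and 50121 in Control mice. Pck1 was thus high in LFCR, ICR and most LFD libraries and low in the Obese ones, with every LFCR and ICR library above every Obese library, while MCR libraries overlapped the Obese range. Of all genes, 8.82% in LFCR and 4.32% in ICR had such a gap from Obese. Pck1 is described further by its fitted differences. It rose relative to Obese by 1.29 ± 0.34 in LFCR (SE, limma adjusted p = 0.00691), by 1.38 ± 0.34 in ICR (adjusted p = 0.00935) and by 1.20 ± 0.34 in LFD (adjusted p = 0.0342). The MCR difference of 0.39 ± 0.36 did not pass (limma adjusted p = 0.512). The LFD call was lost without any 1 of Obese 1, 2 and 3 and LFD 3, 4 and 5, with limma adjusted p up to 0.109. With the mean of 14 luminal epithelial genes as a covariate, the ICR difference was 1.19 (limma adjusted p = 0.0570) and the LFD difference 0.79 (adjusted p = 0.798). Relative to Control, the LFCR difference was 0.88 (limma adjusted p = 0.0417), and that call was lost without any 1 of LFCR 1 to 4 and Control 1 and 2, with adjusted p up to 0.167. It was also lost without the 8 libraries low in B cell genes, at 0.68 (limma adjusted p = 0.169), with quantile normalization, at 0.38 (adjusted p = 0.364), with the compared groups fitted alone (adjusted p = 0.0785), with lane as a term (adjusted p = 0.0543) and without a filter on low values (adjusted p = 0.0574).

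Gpd1 (chr15:99717515-99725005, plus strand) encodes the cytosolic glycerol-3-phosphate dehydrogenase, which makes the backbone from dihydroxyacetone phosphate. Its normalized counts were 46620.3, 64549, 55704, 52482 and 36853 in LFCR mice, 51474, 19096, 44456 and 20673 in MCR mice and 23101, 23393, 34683, 28972 and 16536 in ICR mice. LFD mice had 4228, 24329, 9886, 27647 and 28007. Obese mice had 12957, 7849, 15435, 5617 and 17002, against 4688, 2658, 17379, 34570.1 and 32036 in Control mice. The LFCR libraries stood above every ICR, LFD, Obese and Control library, the MCR libraries fell into a high pair and a low pair, and LFD and Control each spanned more than the whole Obese range. Gpd1 rose in LFCR by 2.21 ± 0.58 relative to Obese (limma adjusted p = 0.00728) and by 2.08 ± 0.58 relative to Control (adjusted p = 0.00957). The MCR difference from Obese, 1.50 ± 0.62 (limma adjusted p = 0.113), and the ICR difference, 1.18 ± 0.58 (adjusted p = 0.225), did not pass. All MCR libraries were above all Obese libraries for Gpd1, as they were for 6.42% of all genes. Most of its exons lie under an antisense gene, Gm16537, which had a mean normalized count of 11.7.

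Gpam (chr19:55067268-55127238, minus strand) encodes the mitochondrial glycerol-3-phosphate acyltransferase, which adds the first acyl chain. Its normalized counts were 7829, 11603, 13189.6, 7290.3 and 8999 in LFCR mice and 9014, 5657, 6999.5 and 4948 in MCR mice. ICR mice had 10253, 6224, 6599, 8014 and 4366, and LFD mice 4498, 3938, 4077, 7014 and 4289.5. Obese mice had 2965, 1792, 1958, 4479 and 3739, against 3266, 2584, 6352, 8163 and 4157 in Control mice. Every LFCR and MCR library lay above every Obese library, and 1 ICR library fell just inside the Obese range. Gpam rose relative to Obese under each calorie-restricted diet, by 1.75 ± 0.29 in LFCR (limma adjusted p = 0.000139), 1.20 ± 0.31 in MCR (adjusted p = 0.0118) and 1.27 ± 0.29 in ICR (adjusted p = 0.00634). With the luminal covariate, the MCR difference was 0.91 (limma adjusted p = 0.0662) and the ICR difference 0.95 (adjusted p = 0.0567). The MCR call was lost as well without MCR 1 (limma adjusted p = 0.0647) and with the compared groups fitted alone (adjusted p = 0.0517).

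Agpat2 (chr2:26593057-26604417, minus strand) encodes the acyltransferase that adds the second acyl chain, and its loss in humans causes a congenital generalized lipodystrophy. Its normalized counts were 15501, 32475, 18133, 28181 and 15348 in LFCR mice and 28259, 8803, 21269 and 9263 in MCR mice. ICR mice had 9374, 8122, 10439, 8725 and 6273, and LFD mice 1902, 6953, 3925, 11159 and 10157. Obese mice had 3739.6, 1755, 5134, 2156 and 4240.5, against 2649, 1458, 6214, 13701 and 11328 in Control mice. All LFCR libraries were above all ICR, LFD, Obese and Control libraries, and the MCR and ICR libraries were all above the Obese ones. For MCR and ICR against Obese, 6.42% and 4.32% of all genes had such a gap. Agpat2 rose by 2.72 ± 0.52 in LFCR (limma adjusted p = 0.000513) and by 2.23 ± 0.55 in MCR (adjusted p = 0.00873) relative to Obese. The ICR difference of 1.42 ± 0.52 did not pass (limma adjusted p = 0.0883). All 2130 exon bases of Agpat2 lie within the span of Gm20532, a gene annotated as protein-coding on the opposite strand that was not analysed here. Its exons also overlap 64 bases of the span of Egfl7, on the opposite strand too, with a mean normalized count of 2227. In Pnpla3, 465 exon bases lie in the span of Gm49513 on the same strand, and in Gpam 214 lie in that of AC110206.1 on the opposite strand, neither analysed here. Whether counting used strand is not given in the sources used here. Without MCR 1, the MCR call was lost (limma adjusted p = 0.0523).

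Lpin1 (chr12:16535669-16610966, minus strand) encodes lipin 1, the phosphatidate phosphatase that makes diacylglycerol and also acts as a nuclear coactivator. Its normalized counts were 34370.2, 19145, 15260.1, 16476 and 12896 in LFCR mice and 12413, 6404, 10205 and 8958 in MCR mice. ICR mice had 18997, 28659, 11222, 16727 and 12984, and LFD mice 6776, 9833, 8650.1, 9855 and 10861. Obese mice had 6222, 4699.9, 6789.5, 7216 and 8062, against 4738, 3288, 7136, 18256 and 7979 in Control mice. Every ICR library was above every LFD and Obese library, and every LFCR library above every MCR, LFD and Obese library. Of all genes, 1.08% and 4.32% had such a gap for ICR, and 0.934%, 5.47% and 8.82% for LFCR. Lpin1 rose relative to Obese in LFCR, by 1.50 ± 0.33 (limma adjusted p = 0.00174), and in ICR, by 1.37 ± 0.33 (adjusted p = 0.00889), while the MCR difference of 0.51 ± 0.35 did not pass (adjusted p = 0.373). It was the 1 member higher in ICR than in Control fat, by 1.27 ± 0.33 (limma adjusted p = 0.0297), in a comparison where 3.69% of all genes passed as higher. That call was lost without any 1 of ICR 1, 2 and 4 and Control 1 and 2, with limma adjusted p up to 0.113.

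Dgat1 (chr15:76502015-76511953, minus strand) and Dgat2 (chr7:99153658-99182719, minus strand) encode unrelated diacylglycerol acyltransferases that complete the triglyceride. For Dgat1, the normalized counts were 6088, 10104, 8601, 7183 and 6868 in LFCR mice, 6658, 4426, 7917 and 5996 in MCR mice and 6409, 5410.5, 3385, 5242 and 4333 in ICR mice. LFD mice had 1679, 4495, 3474, 5089 and 5595. Obese mice had 3319.7, 1679.7, 2297, 1750.1 and 3816, against 1624, 1359, 3296, 5211 and 3983 in Control mice. All LFCR and MCR libraries were above the Obese range, and the other groups overlapped it. Dgat1 rose relative to Obese by 1.64 ± 0.33 in LFCR (limma adjusted p = 0.000882) and by 1.32 ± 0.35 in MCR (adjusted p = 0.0147), a call lost without MCR 1 or MCR 3 (adjusted p up to 0.0626). The ICR difference of 0.98 ± 0.33 did not pass (limma adjusted p = 0.0625), but it passed without the 8 libraries low in B cell genes, at 1.35 (adjusted p = 0.0180). With the compared groups fitted alone, Dgat1, Agpat2 and Gpd1 also passed in ICR against Obese, with limma adjusted p of 0.0426, 0.0164 and 0.0489.

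For Dgat2, the normalized counts were 38126, 62967, 39599, 46574 and 37059 in LFCR mice and 50505, 16575, 36189.9 and 18280.2 in MCR mice. ICR mice had 22464, 23910.2, 24902, 15966 and 16816, and LFD mice 7693, 28227, 9096, 19292 and 18432. Obese mice had 16006, 11078, 23633, 11497 and 28789, against 7177, 7846, 14427, 40167 and 20289 in Control mice. Only LFCR stood clear of the Obese range among the 5 other groups. Dgat2 rose in LFCR by 1.38 ± 0.41 relative to Obese (limma adjusted p = 0.0179), a call lost without Obese 2 or LFCR 2 (adjusted p up to 0.0574), and by 1.59 ± 0.41 relative to Control (adjusted p = 0.00628). The differences from Obese were 0.69 in MCR (limma adjusted p = 0.331), 0.27 in ICR (adjusted p = 0.751) and -0.20 in LFD (adjusted p = 0.875). Per 100 Dgat1 counts, Dgat2 had 580 ± 78.4 counts in LFCR mice, 474 ± 200 in MCR mice, 444 ± 171 in ICR mice, 411 ± 141 in LFD mice, 716 ± 200 in Obese mice and 547 ± 137 in Control mice (SD, n = 5, and 4 for MCR). This ratio was highest in Obese mice, with ranges that overlapped those of the other groups, and it was not tested.

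Pnpla3 (chr15:84167837-84187236, plus strand) encodes adiponutrin, a lipid droplet protein known to fall on fasting and to be induced by SREBP-1c and ChREBP. Its normalized counts were 15169, 17161, 11044, 14690.3 and 8639.8 in LFCR mice and 22331, 5170.3, 14378 and 9470.1 in MCR mice. ICR mice had 4689, 3969, 7806, 4382 and 2603, and LFD mice 1455, 6914, 1881, 6666 and 6871. Obese mice had 928, 629.9, 2885, 1232 and 2282, against 2291, 1668, 6719.7, 6159 and 8079.6 in Control mice. LFCR and MCR libraries were all above the Obese range, and 1 ICR, 2 LFD and 2 Control libraries fell inside it. The widest differences of any member were those of Pnpla3 from Obese, 3.22 ± 0.51 in LFCR (limma adjusted p = 8.58e-05) and 3.01 ± 0.54 in MCR (adjusted p = 0.000838). In ICR it rose by 1.67 ± 0.51 (limma adjusted p = 0.0391), a call lost without any 1 of Obese 1, 2 and 4 and ICR 1 to 4, with adjusted p up to 0.120. The ICR call was lost as well with the luminal covariate, at 1.81 (limma adjusted p = 0.0631), without the 8 libraries low in B cell genes, at 1.73 (adjusted p = 0.0515), with lane as a term, at 1.53 (adjusted p = 0.0913), without a filter on low values (adjusted p = 0.0620) and with the adipocyte covariate, at 0.79 (adjusted p = 0.242). In LFD the difference was 1.48 ± 0.51 (limma adjusted p = 0.0855).

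Pnpla3 was also the 1 member that differed between Obese and Control fat, and it fell by 1.59 ± 0.51 (SE) on the log2 scale (limma adjusted p = 0.0404). It averaged 1592 ± 955 normalized counts in Obese mice and 4983 ± 2838 in Control mice (SD, n = 5 each). The difference had the same sign in 4 of 4 lanes that held both groups, from -2.30 to -1.21. The call rested on narrow margins. It was lost without any 1 of Obese 1, 2, 4 and 5 and Control 3, 4 and 5 (limma adjusted p up to 0.118), without the 8 libraries low in B cell genes (adjusted p = 0.126), with lane as a term (adjusted p = 0.0799), with the luminal covariate (adjusted p = 0.0942), with the compared groups fitted alone (adjusted p = 0.100) and without a filter on low values (adjusted p = 0.0639). The other 7 members had differences from -0.72 to 0.21 between Obese and Control, with limma adjusted p from 0.128 to 0.893. With the mean of 13 mature adipocyte genes as a covariate, Gpam passed too, at -0.84 (limma adjusted p = 0.0226).

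**Figure D2:**
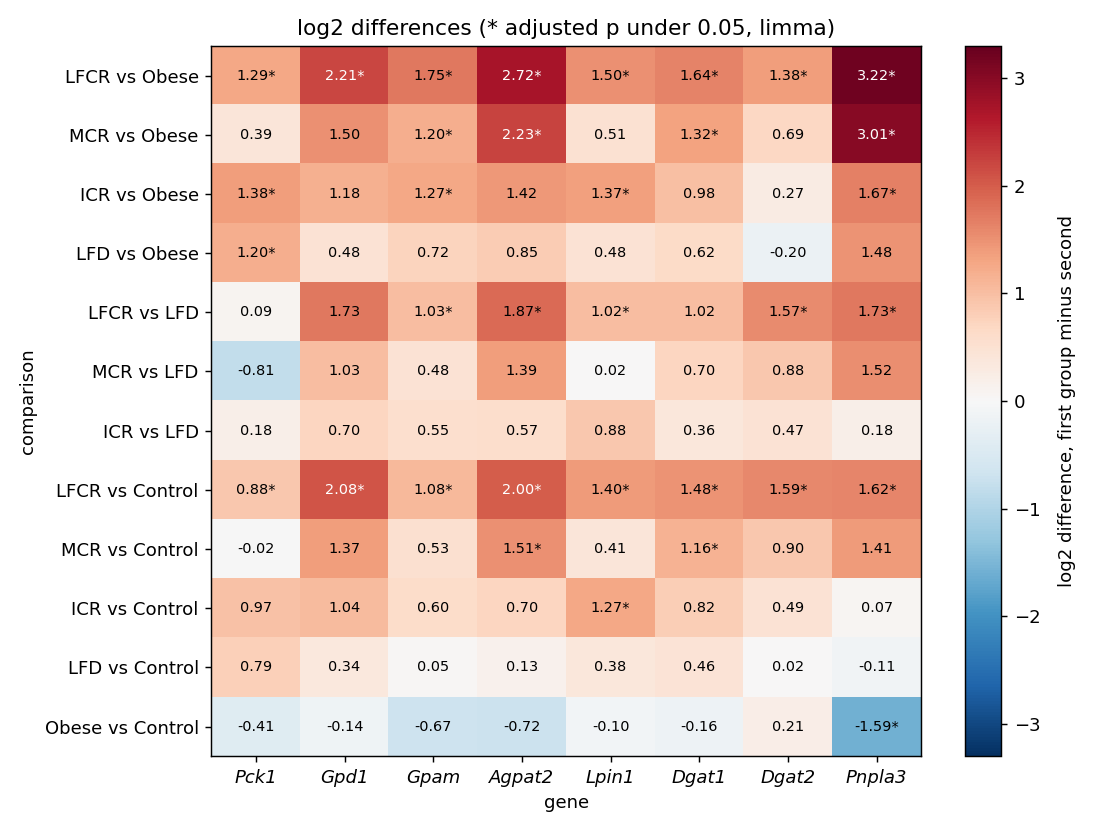
Fitted log2 differences of the 8 genes (columns) in 12 comparisons (rows), first-named group minus second, with an asterisk where limma's adjusted p was under 0.05. The row for LFCR against Obese carries 8 asterisks and values from 1.29 for Pck1 to 3.22 for Pnpla3.

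Relative to Control, LFCR fat was higher in 8 of 8 members, by 0.88 for Pck1 to 2.08 for Gpd1, where 20.1% of all genes passed as higher. Without Control 1 or Control 2 the limma call of Pnpla3 was lost too, with adjusted p up to 0.0676. Every LFCR library was above every Control library for 4 members, Agpat2, Dgat1, Pnpla3 and Gpd1, against 12.2% of all genes. MCR fat was higher than Control fat in 2 members, where 13.9% of all genes passed as higher. These were Agpat2, at 1.51 ± 0.55 (limma adjusted p = 0.0418), and Dgat1, at 1.16 ± 0.35 (adjusted p = 0.0227). Both calls were lost without any 1 of MCR 1, 3 and 4 and Control 1 and 2, with limma adjusted p up to 0.159. They were lost too with the compared groups fitted alone and with the adipocyte covariate. In each of these 2 fits, 0 genes passed as higher. Leaving out the 8 libraries low in B cell genes kept only MCR 2, so that fit cannot test these calls. All 13 B cell genes were lower in MCR than in Control fat, where 15.7% of all genes passed as lower. The Agpat2 call was also lost with lane as a term, without a filter and with quantile normalization (limma adjusted p from 0.0539 to 0.0697), while Gpam passed with the luminal covariate, at 0.77 (adjusted p = 0.0487). Without the 8 libraries low in B cell genes, Dgat1 and Pck1 joined Lpin1 as higher in ICR than in Control fat, at 0.82 and 0.97 (limma adjusted p = 0.0498 and 0.0338). LFD fat differed from Control fat in no member and in 0% of genes by limma with Benjamini-Hochberg adjustment, with 1 member and 2425 genes at an unadjusted p under 0.05 and 0 genes by voom. These comparisons share their Control libraries, and Control 1 and 2 were the lowest pair of Control libraries for all 8 members.

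Calorie restriction was set against the unrestricted low-fat diet by comparing each restricted group with LFD. LFCR fat was higher than LFD fat in 5 members, where 6.29% of all genes passed as higher: Gpam by 1.03, Agpat2 by 1.87, Lpin1 by 1.02, Dgat2 by 1.57 and Pnpla3 by 1.73, with limma adjusted p from 0.0221 to 0.0494. Every LFCR library exceeded every LFD library for 7 of 8 members, as it did for 5.47% of all genes. Pck1 was the exception, with a difference of 0.09 ± 0.34 (limma adjusted p = 0.886). The number of members called was 0 without any 1 of LFD 1, LFD 3 and LFCR 2, and single calls were also lost without other LFCR or LFD libraries, that of Lpin1 without any 1 of LFD 1 to 5 and LFCR 1 to 4 (limma adjusted p up to 0.156). It was also 0 without the 8 libraries low in B cell genes, with lane as a term, or with the luminal covariate, under which the differences of the 5 genes were 1.13 to 2.05, and 1, Agpat2, with quantile normalization. Calls over all genes fell in these fits too. Genes passing as higher were 15, 433, 9 and 1029 in that order, against 1219 in the main fit. The Lpin1 call was lost with voom (adjusted p = 0.0608) and the Pnpla3 call in a limma fit of the compared groups alone (adjusted p = 0.0578), and both were lost without a filter. With the adipocyte covariate the number of members called was 0 as well, where 107 of all genes passed as higher. The differences of the 5 genes were then smaller, from 0.38 for Lpin1 to 1.01 for Agpat2 (limma adjusted p from 0.185 to 0.429). Luminal epithelial genes themselves were lower in LFCR, where 8 of 14 fell and 1 rose, against 3.32% and 6.29% of all genes. The list's mean log2 value was 10.4 ± 0.28 in LFCR mice and 11.3 ± 0.71 in LFD mice (SD, n = 5 each). MCR and ICR fat differed from LFD fat in 0 members each, where 0.294% and 0.0309% of all genes passed in either direction. At an unadjusted limma p under 0.05, 3 members differed for MCR and 1 for ICR, and voom called 0 in both. With the adipocyte covariate, Pck1 was lower in MCR than in LFD fat (limma adjusted p = 0.0431).

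The 3 restricted diets were compared with each other to ask whether the kind of restriction mattered for these genes. The limma F-test among LFCR, MCR and ICR passed for 0 members and for 0% of all genes with Benjamini-Hochberg adjustment, with 4 members and 2506 genes at an unadjusted p under 0.05 and 0 by voom. Pck1 averaged 72236 ± 16728 normalized counts in LFCR mice, 39809 ± 14280 in MCR mice and 77920 ± 19765 in ICR mice (SD, n = 5, 4 and 5). Pnpla3 averaged 13341 ± 3433 in LFCR mice, 12838 ± 7363 in MCR mice and 4690 ± 1916 in ICR mice. Over the 8 members, the MCR minus LFCR differences were all negative, widest for Lpin1 and narrowest for Pnpla3, at -0.21, and the ICR minus LFCR differences ran from -1.55 for Pnpla3 to 0.09 for Pck1. No member passed between any pair of the 3 diets, where 0% of all genes passed for MCR against LFCR, 0% for ICR against LFCR and 0.00516%, or 1 gene, for ICR against MCR. The ICR minus MCR differences were 0.99 ± 0.36 for Pck1 (limma adjusted p = 0.240), 0.86 ± 0.35 for Lpin1 (adjusted p = 0.273) and -1.34 ± 0.54 for Pnpla3 (adjusted p = 0.272). The ICR minus LFCR difference of Pnpla3 was -1.55 ± 0.51 (limma adjusted p = 0.211), although all LFCR libraries lay above all ICR libraries for Pnpla3, Agpat2, Dgat2 and Gpd1. These 4 of 8 members compare with 2.69% of all genes.

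**Figure D3:**
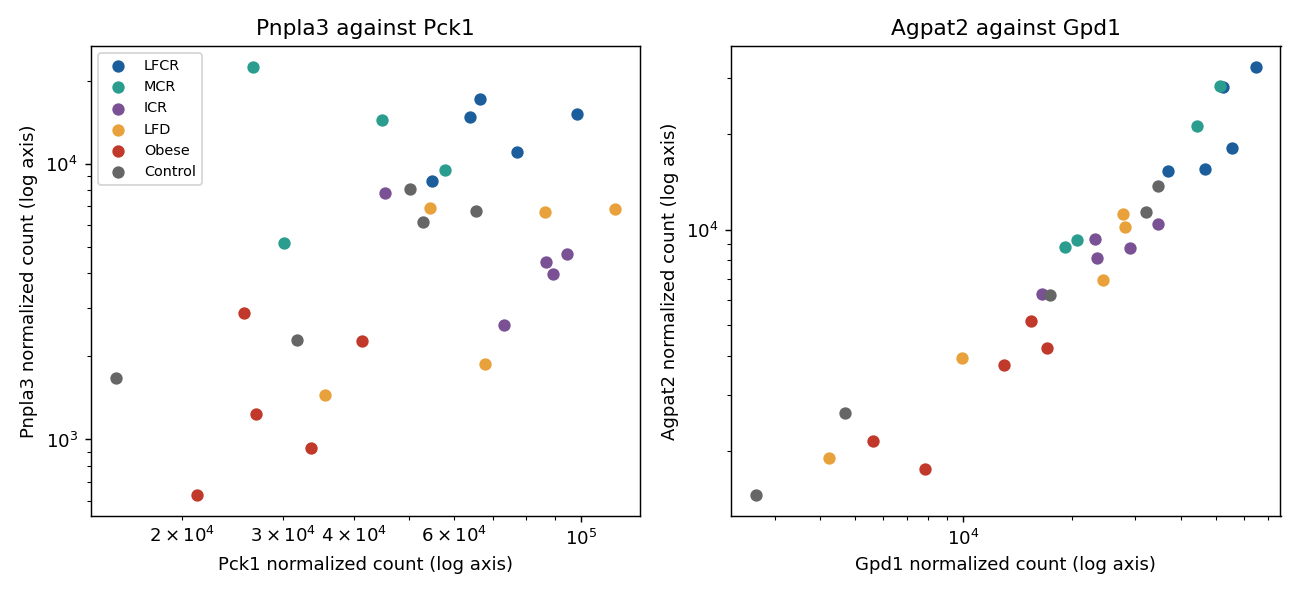
Normalized counts of Pnpla3 against Pck1 (left) and of Agpat2 against Gpd1 (right), both axes logarithmic, 1 point per library coloured by group. Agpat2 and Gpd1 line up along 1 diagonal, with LFCR and 2 MCR libraries at its top, while Pnpla3 and Pck1 scatter, with ICR libraries at high Pck1 and middling Pnpla3.

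The members varied together to different degrees. Over the 29 libraries, Pearson's r between the log2 values of a pair of members ran from 0.36 for Dgat2 with Pck1 to 0.96 for Agpat2 with Gpd1, and within groups it was 0.36 and 0.96 for the same pairs. The libraries share depth and tissue makeup, so these values only describe the set. Over the 28 pairs, r had a mean of 0.74 and a median of 0.76. The 7 pairs with Pck1 ran from 0.36 with Dgat2 to 0.76 with Lpin1, with 0.48 for Pnpla3 and 0.54 for Agpat2. Counts per kilobase of exon put Pck1 first in all 6 groups, from 8685 in Obese mice to 22724 in ICR mice. Gpd1 was the next in 5 groups, with 17306 in LFCR mice against 6169 in Control mice, and in Obese mice Dgat2, at 5904, stood above Gpd1, at 3976. Gpam was the lowest of the 8 per kilobase in 5 groups, with 1468 in LFCR mice and 448 in Obese mice, and Lpin1 was the lowest in MCR mice, with 982.

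Markers of fat cells rose with the members in LFCR fat. Of 13 mature adipocyte genes, 7 rose in LFCR relative to Obese, with a median difference of 0.86 against 1.70 for the 8 members, and none of the 13 was at or near 0 in any library. The 7 were Plin1, Lipe, Pnpla2, Adrb3, Cfd, Retn and Slc2a4, whereas Adipoq had a difference of 0.54 (limma adjusted p = 0.181) and Cd36 one of -0.04. The summed counts of the 13 genes ran from 1143060 to 1983420 in LFCR mice and from 654465 to 1415210 in Obese mice. With the mean of the 13 genes as a covariate, 2 of the 8 members still passed between LFCR and Obese, Gpam at 1.02 (limma adjusted p = 0.0258) and Pnpla3 at 1.96 (adjusted p = 0.0167). In that fit 1384 of all genes passed as higher in LFCR, against 2316 without the covariate. With the covariate in MCR against Obese, Pnpla3 passed at 2.05 (limma adjusted p = 0.0128), where 581 of all genes passed as higher. Relative to Control, 13 of 13 adipocyte genes rose in LFCR, their summed counts in Control mice were 331299 to 868291, and with the covariate 0 members passed, with differences of -0.40 to 0.28. Of all genes, 0 passed as higher and 2 as lower in that fit, against 3890 and 3493 without the covariate. In ICR against Obese, Gpam passed with the covariate, at 0.77 (limma adjusted p = 0.0443), where 2347 of all genes passed as higher. Between Obese and Control fat the markers did not follow the members. Of the 13 genes, 5 were higher and 1 lower in Obese, where 9.44% and 3.44% of all genes passed. Their median difference was 0.54, against -0.29 for the 8 members. The adipocyte list itself holds genes of fat storage and breakdown.

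Members were also set against Plin1, the coat protein of the adipocyte lipid droplet, in each library. Pnpla3 had 21.8 ± 6.70 counts per 100 Plin1 counts in LFCR mice, 21.2 ± 8.74 in MCR mice, 10.7 ± 6.70 in ICR mice, 11.3 ± 5.79 in LFD mice, 4.76 ± 3.21 in Obese mice and 16.8 ± 6.59 in Control mice (SD). The highest Obese library, at 10.1, was below the lowest LFCR and MCR libraries, at 13.9 and 13.4, and above the lowest Control library, at 9.84. Pck1 had 116 ± 18.9 counts per 100 Plin1 counts in LFCR mice, 70.8 ± 22.5 in MCR mice, 165 ± 24.8 in ICR mice, 181 ± 70.1 in LFD mice, 86.4 ± 16.3 in Obese mice and 152 ± 42.8 in Control mice. On this scale Pck1 was low in MCR and Obese mice, and every ICR library, from 130 to 196, exceeded every Obese library, from 63.0 to 106. Gpd1 had 83.1 ± 19.5 in LFCR mice, 33.5 ± 12.6 in Obese mice and 57.3 ± 40.5 in Control mice. Against Adipoq some of these orders changed. Per 100 Adipoq counts, Pck1 had 65.7 ± 26.3 counts in MCR mice and 60.5 ± 9.88 in Obese mice. Every LFCR library, from 87.0 to 111, and every ICR library, from 85.8 to 158, then exceeded every Obese library, from 53.3 to 78.0. For Pnpla3, every Control library, from 7.53 to 22.1, exceeded every Obese library, from 1.57 to 6.48. The ratios were not tested, and counts are not scaled by length.

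Other cell types differed between the groups as well. Of 9 macrophage genes, 7 fell in LFCR relative to Obese, where 9.42% of all genes passed as lower. The summed counts of the 9 genes ran from 11092 to 32724 in LFCR mice and from 33914 to 49553 in Obese mice. Of 7 genes of thermogenic adipocytes, 3 rose (Cidea, Cox8b and Ppara), while Ucp1, the uncoupling protein that defines these cells, averaged 31.0 ± 21.8 normalized counts in LFCR mice and 47.2 ± 61.9 in Obese mice (SD, n = 5 each). The summed counts of the 7 genes ran from 1231 to 4573 in LFCR mice and from 235 to 499 in Obese mice. Liver uses most of this route too, and of 8 hepatocyte genes 7 were in the table, of which 3 passed the filter and 1 rose. This was Alb (albumin), which averaged 4844 ± 1654 in LFCR mice and 360 ± 160 in Obese mice. Serpina1a averaged 39.6 in LFCR mice and 49.2 in Obese mice, G6pc 7.32 in LFCR mice and 5.32 in Obese mice, and Apoa2 4.58 in LFCR mice and 3.42 in Obese mice, whereas Apoa1, Apob and Tat averaged at most 4.27 in every group. Skeletal muscle genes set single libraries apart. Of 12 such genes 0 passed between LFCR and Obese by limma with Benjamini-Hochberg adjustment, with 0 at an unadjusted p under 0.05. Their summed counts were 18210 in LFCR 5 and 232 to 1405 in the other LFCR libraries, 32860 in LFD 5 and 397 to 4476 in the other LFD libraries, and 55399 in Obese 2 and 373 to 913 in the other Obese libraries. Obese 2 was also the lowest Obese library for 7 of the 8 members, all but Gpd1. Without it, 7 members rose in LFCR relative to Obese, with differences of 1.18 to 2.94, and Dgat2 had 1.22 (limma adjusted p = 0.0574). The part of the macrophage, thermogenic, hepatocyte and muscle genes in the members' differences was not tested.

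Because every LFCR library lay above every Obese library for all 8 members, the direction within lanes was fixed in advance and tests nothing about lane. Within the 4 lanes that held both groups, the smallest difference of any member was 0.36, for Dgat2. Without the 8 libraries low in B cell genes, 8 members again passed in LFCR against Obese, with differences of 1.33 to 3.28, and 4 in ICR against Obese, where Dgat1 passed and Pnpla3 no longer did, while MCR, left with 1 library that was taken to vary like the other groups, had 0. For MCR against Obese, the number of members called was 1 without MCR 1, namely Pnpla3. Quantile normalization left the members' calls against Obese as they were, but moved the share of MCR against Obese calls that were higher, with 1615 higher and 813 lower genes against 1292 and 1103. For MCR against Control it gave 3560 higher and 2486 lower genes against 2695 and 3035.

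The members' paralogs show how far the rise extends within each enzyme family. In LFCR relative to Obese, the 2 other glycerol-3-phosphate acyltransferases that could be tested rose with Gpam, while Gpat2 did not pass the filter on low counts. The 2 were Agpat9, now named Gpat3, at 1.49 ± 0.28 (limma adjusted p = 0.000353) and Gpat4 at 1.18 ± 0.22 (adjusted p = 0.000332). Among the acyltransferases of the second step, Agpat1 rose by 0.59, Agpat4 fell by 0.62, and Agpat3 and Agpat5 had differences of 0.31 and 0.02 with limma adjusted p of 0.119 and 0.900, against 2.72 for Agpat2. Lclat1, a related lysophospholipid acyltransferase, had 0.16 ± 0.081 (SE) and did not pass. Lpin2 and Lpin3 had differences of -0.03 and -0.14 (limma adjusted p = 0.929 and 0.725), against 1.50 for Lpin1. Gpd2, the mitochondrial enzyme that oxidises glycerol-3-phosphate, rose by 2.55 ± 0.34 (limma adjusted p = 1.55e-05), close to Gpd1, while Gpd1l rose by 0.22. Pck2, the mitochondrial carboxykinase, fell by 0.32 (limma adjusted p = 0.0267), against a rise of 1.29 for Pck1.

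**Figure D4:**
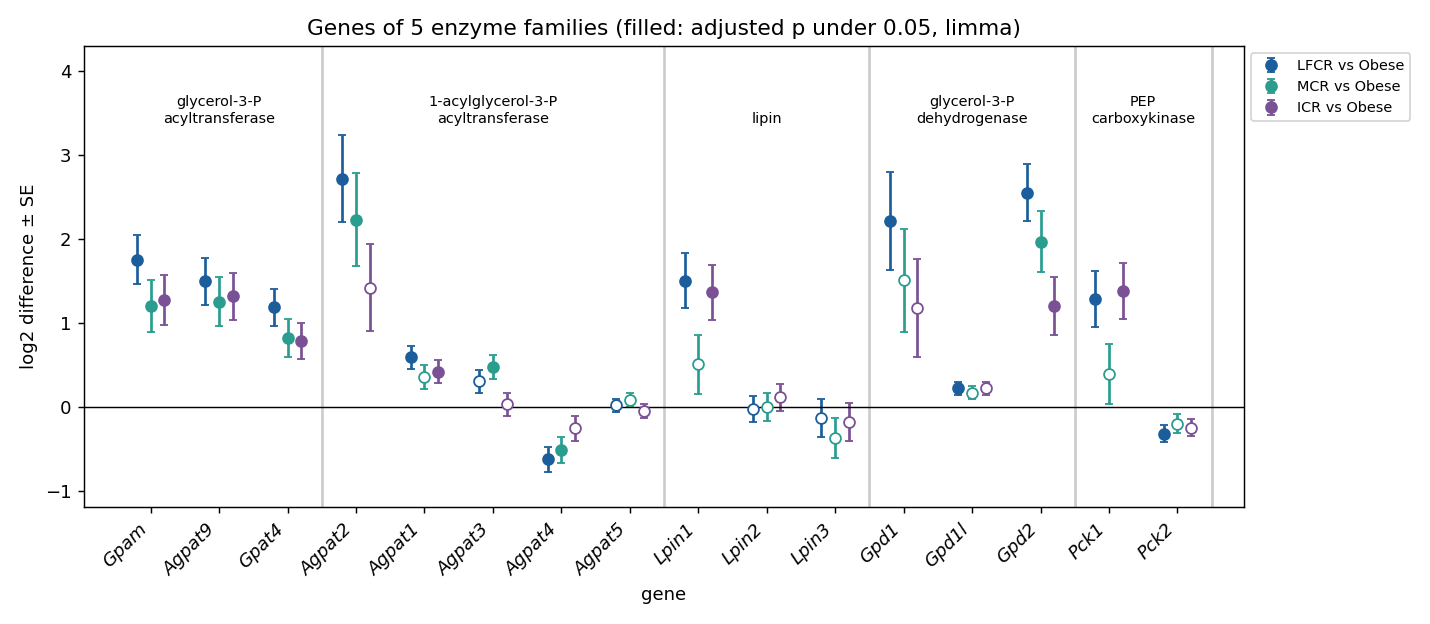
Fitted log2 differences ± SE of genes of 5 enzyme families in LFCR, MCR and ICR against Obese, with filled points where limma's adjusted p was under 0.05. In LFCR, Gpam, Agpat2, Lpin1, Gpd1 and Pck1 are filled, with values of 1.75, 2.72, 1.50, 2.21 and 1.29, while Lpin2, Lpin3, Agpat3 and Agpat5 are open.

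Beyond the 8 members, 27 of 29 other glycerolipid genes could be tested. In LFCR against Obese 9 rose and 5 fell, where 11.9% and 9.42% of all genes did, with a median of 0.02 against -0.04 for all genes. In MCR 7 rose and 3 fell, where 6.66% and 5.69% of all genes did. In ICR 6 rose and 2 fell, where 3.99% and 5.23% of all genes did, and in LFD 2 rose and 1 fell, where 2.7% and 3.28% did. Between Obese and Control 4 were higher and 2 lower in Obese, where 9.44% and 3.44% of all genes were. The smallest adjusted p in LFCR against Obese belonged to Gpd2 and Gpat4, given above, to Pcx (pyruvate carboxylase, which feeds glyceroneogenesis), at 2.73 ± 0.48 (limma adjusted p = 0.000233), and to Mogat1 (a monoacylglycerol acyltransferase), at 1.70 ± 0.30 (adjusted p = 0.00025). Pcx averaged 61367 ± 15264 normalized counts in LFCR mice and 9327 ± 2839 in Obese mice (SD, n = 5 each). Between Obese and Control, Cds2 rose by 0.64 ± 0.13 (limma adjusted p = 0.00212) and Cds1 by 0.63 ± 0.16 (adjusted p = 0.0120). Both encode CDP-diacylglycerol synthases, which divert phosphatidate from triglyceride to phospholipid.

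Among 14 transcriptional regulators of lipid synthesis, 8 rose and 0 fell in LFCR against Obese, with a median of 0.77, and the same numbers held in MCR, with a median of 0.66. In ICR 4 rose, and in LFD 0 did. Of all genes, 11.9% passed as higher than Obese in LFCR, 6.66% in MCR, 3.99% in ICR and 2.7% in LFD. Srebf1 averaged 13690 ± 3430 normalized counts in LFCR mice and 4211 ± 672 in Obese mice and rose by 1.67 ± 0.30 (limma adjusted p = 0.000319). Mlxipl averaged 5980 ± 1420 in LFCR mice and 1779 ± 689 in Obese mice and rose by 1.78 ± 0.40 (limma adjusted p = 0.00225). The coactivators Ppargc1a and Ppargc1b rose by 1.69 and 1.18 (limma adjusted p = 0.000151 and 0.000175). Between Obese and Control 0 of the 14 passed by limma with Benjamini-Hochberg adjustment, and the 2 with the smallest adjusted p were Mlx at -0.33 (adjusted p = 0.0575) and Ppargc1b at -0.52 (adjusted p = 0.0890).

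The genes whose values were most like the mean of the 8 standardised members over the 29 libraries were Cpt2 (r = 0.980), Gys1 (r = 0.969), A530016L24Rik (r = 0.966), Slc2a4 (r = 0.963) and Aco1 (r = 0.958), out of 14696 genes ranked. Cpt2 encodes a mitochondrial carnitine palmitoyltransferase, Gys1 a glycogen synthase, Slc2a4 the insulin-responsive glucose transporter and Aco1 the cytosolic aconitase. In LFCR against Obese these genes differed by 1.35 for Cpt2, 1.82 for Gys1, 2.36 for A530016L24Rik, 2.08 for Slc2a4 and 1.19 for Aco1. They were picked for likeness to the members over the same libraries, so these rises follow from the choice and are no separate result. Slc2a4 is also 1 of the 13 mature adipocyte genes.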

How the data were processed

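TopHat2 2.0.7, HTSeq 0.5.3p9, DESeq2 and the mm10 build are named, without their roles, in the list taken from the submitters' processing notes. Per the labels' protocols total RNA was sequenced from stranded libraries as paired reads of 76 bases. The deposited table holds log2 values made by the authors, 1 per gene and library, with 3.75 as the lowest value. Undoing a variance-stabilising transform gave whole reads for 100% of values within 0.01. This transform is inferred from the values, as no source used here states it. It compresses low counts, so log2 differences understate the change of low genes. Normalized counts are the values with the transform undone.

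Genes with 10 or more normalized counts in at least 4 libraries were tested. The main test was limma 3.58.1, run in R 4.3.3 with statmod 1.5.0, on a mean for each of the 6 groups in a single fit of 29 libraries, with trend, robust moderation and Benjamini-Hochberg adjustment over 19387 genes. The code was tested on simulated data. Voom on recovered reads used trimmed-mean factors computed directly in R. Exon lengths came from GENCODE vM21 on GRCm38 and promoters from RefSeq. Totals of reads carry no molecular identifiers and are given as depth only.

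Alternatives were no filter, quantile normalization, voom, the compared groups alone, lane as a term, luminal or adipocyte covariates, leaving out libraries low in B cell genes, and leaving out each library. The members, the gene lists and the tests were chosen with earlier results of these data known. Named genes are the members, their paralogs, from the glycerolipid and regulator lists the 4 with the smallest adjusted p in LFCR against Obese and the 2 in Obese against Control, and the 5 genes most like the members with a mean count of 50 or more. Some marker genes and further list members were named after their values were seen.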

Additional observations from a re-analysis of the deposited data

Results flagged for a closer look

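In 48 checks of 1 gene in 1 group, 1 library stood apart from the rest of its group. Gpam in LFD 4 had 7013.8 normalized counts, while the other LFD libraries had 3938 to 4498, and chance flags about 1 group in 20. Without LFD 4, the Gpam difference between LFCR and LFD was 1.18 (limma adjusted p = 0.0296), against 1.03 (adjusted p = 0.0295) with it, and that between LFD and Obese was 0.57 (adjusted p = 0.355), against 0.72 (adjusted p = 0.151).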

How the results depend on the processing

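With all libraries and the settings of the report, genes called were 2496 for Obese against Control, 1159 for LFD against Obese, 4142 for LFCR against Obese, 2395 for MCR against Obese, 1786 for ICR against Obese, 7383 for LFCR against Control, 5730 for MCR against Control, 887 for ICR against Control, 1862 for LFCR against LFD, 57 for MCR against LFD, 6 for ICR against LFD and 0 for the 3 restricted diets, and the members called stand in the report. Alternatives are given where they moved a count of calls (limma or voom, adjusted p under 0.05) by more than 1.5 times from these. With the compared groups fitted alone, members called were 0 for Obese against Control, 0 for LFD against Obese, 7 for ICR against Obese, 0 for MCR against Control and 0 for ICR against Control, and genes called were 1082 for Obese against Control, 140 for LFD against Obese, 1135 for MCR against Obese, 1 for MCR against Control, 1061 for LFCR against LFD, 0 for MCR against LFD and 0 for ICR against LFD. With lane as a term, members called were 0 for Obese against Control, 0 for LFD against Obese, 1 for MCR against Control and 0 for LFCR against LFD, and genes called were 1590 for MCR against Obese, 794 for LFCR against LFD, 18 for MCR against LFD, 0 for ICR against LFD and 1 for the 3 restricted diets. With the luminal covariate, members called were 0 for Obese against Control, 0 for LFD against Obese, 1 for ICR against Obese and 0 for LFCR against LFD, and genes called were 882 for Obese against Control, 7 for LFD against Obese, 1497 for MCR against Obese, 1115 for ICR against Obese, 12 for LFCR against LFD, 0 for MCR against LFD and 0 for ICR against LFD. With the adipocyte covariate, members called were 2 for Obese against Control, 2 for LFCR against Obese, 1 for MCR against Obese, 1 for ICR against Obese, 0 for LFCR against Control, 0 for MCR against Control, 0 for ICR against Control, 0 for LFCR against LFD and 1 for MCR against LFD, and genes called were 3110 for LFD against Obese, 5124 for ICR against Obese, 2 for LFCR against Control, 0 for MCR against Control, 1 for ICR against Control, 257 for LFCR against LFD, 44 for ICR against LFD and 89 for the 3 restricted diets. Without a filter on low values, members called were 0 for Obese against Control, 1 for MCR against Control and 3 for LFCR against LFD, and genes called were 30 for MCR against LFD and 4 for the 3 restricted diets. With quantile normalization, members called were 1 for MCR against Control and 1 for LFCR against LFD, and genes called were 130 for MCR against LFD and 3 for the 3 restricted diets. With voom, genes called were 0 for ICR against LFD. Without the 8 libraries low in B cell genes, members called were 0 for Obese against Control, 0 for MCR against Obese, 0 for MCR against Control, 3 for ICR against Control and 0 for LFCR against LFD, and genes called were 628 for Obese against Control, 171 for LFD against Obese, 101 for MCR against Obese, 4915 for LFCR against Control, 0 for MCR against Control, 4714 for ICR against Control, 19 for LFCR against LFD, 0 for MCR against LFD and 1 for ICR against LFD. Leaving out 1 library at a time, members called ran from 0 to 1 for Obese against Control, from 0 to 2 for LFD against Obese, from 1 to 4 for MCR against Obese, from 0 to 5 for MCR against Control, from 0 to 2 for ICR against Control, from 0 to 6 for LFCR against LFD and from 0 to 1 for MCR against LFD. In those fits, genes called ran from 1090 to 3377 for Obese against Control, from 456 to 1634 for LFD against Obese, from 1202 to 4507 for MCR against Obese, from 4364 to 8157 for LFCR against Control, from 547 to 9117 for MCR against Control, from 149 to 1518 for ICR against Control, from 487 to 2401 for LFCR against LFD, from 3 to 2747 for MCR against LFD, from 0 to 87 for ICR against LFD and from 0 to 505 for the 3 restricted diets. With the adipocyte covariate, 2 differences between LFCR and Control changed sign, Gpd1 to -0.014 (limma adjusted p = 0.996) and Pck1 to -0.40 (adjusted p = 0.780). The cause of these changes was not tested, except that fits of fewer libraries estimate the spread from fewer values. No paired analysis was run, because the labels give no pairing of libraries across the diet groups. Lane was fitted as a term, but it is a sequencing lane and not a pairing of animals. Depth was lowest, at 16403903 to 18212783 reads, in 1 lane of 5 libraries, and the lowest member value in any library was 629.9 normalized counts, for Pnpla3 in Obese 2.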

Other observations

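Between Obese and Control fat, 4 further glycerolipid genes passed that the lists' naming rule did not pick, and they are named here after their values were seen. Of all genes, 9.44% passed as higher and 3.44% as lower in Obese. Gpd2, the mitochondrial glycerol-3-phosphate dehydrogenase, fell by 1.24 ± 0.34 (limma adjusted p = 0.0175), with 1561 ± 98.0 normalized counts in Obese mice and 4217 ± 2223 in Control mice (SD, n = 5 each). Lpin2 fell by 0.57 (limma adjusted p = 0.0201). Aqp7, the glycerol channel of adipocytes, rose by 1.10 (limma adjusted p = 0.0186), and Plpp1, a lipid phosphate phosphatase, rose by 0.41 (adjusted p = 0.0412).

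Ucp1 was uneven within the LFD and Control groups. It ran from 0 to 51.2 normalized counts across LFCR, MCR and ICR mice, from 1.95 to 2879 in LFD mice, from 1.49 to 156 in Obese mice and from 20.4 to 3648 in Control mice.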
